A study of Mus musculus with 40 samples.

Results

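The genes described here are 38 members of the p53 pathway: Trp53, which encodes p53, 3 of its regulators and 34 genes known or proposed as its transcriptional targets. They were taken by symbol from a fixed list, and all 38 were among the 24062 genes of the count table. Trp53 itself is not a target, and Mdm4 is mainly known as an inhibitor of p53, so the set is called the p53 pathway genes below.

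p53 is a transcription factor that is kept scarce by the ubiquitin ligase Mdm2 and is held inactive by the related protein Mdm4. DNA damage activates kinases that release p53 from both, and p53 then binds response elements made of a pair of half-sites near its targets. These targets arrest the cell cycle, repair DNA, counter oxidative stress or start apoptosis, and several of them (Mdm2, Ppm1d) switch p53 off again. Doxorubicin, an anthracycline that poisons topoisomerase II and intercalates in DNA, activates this pathway in fibroblasts. At high exposure anthracyclines can also depress transcription itself.

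RNA was sequenced from primary mouse embryonic fibroblasts (MEFs) of embryos at 13.5 days post coitum, at passage 3, of the strain Mixed C57BL/6J-129P2OlaHsd. The embryos were wild type (WT), heterozygous (Het) or knockout (KO) for Sall2, a zinc finger transcription factor, through a germline allele made in embryonic stem cells of 129P2OlaHsd mice, so every cell type carries it and a segment of chromosome 14 comes with it. Control libraries came from 1 WT, 1 Het and 3 KO cultures (KO 1, KO 2 and KO 3), each numbered by embryo, and libraries after 16 hours in 1 µM doxorubicin came from WT, Het, KO 1 and KO 2. The column labelled KO 3 with doxorubicin held the same count as KO 2 with doxorubicin for 24062 of 24062 genes and was counted once, which left 9 distinct libraries. Its counts of Xist and of Y-linked genes matched the KO 2 control and not the KO 3 control. The design asks what doxorubicin changes in these cells and whether the loss of Sall2 alters it. With 1 library per treatment, WT and Het give no spread of their own. The p-values between genotypes draw on the spread of the KO cultures. Those of treatment draw also on how far the WT and Het responses depart from the response shared by all cultures.

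The libraries held 15560728 to 24122414 counts, and levels are given as CPM (counts scaled to a common library size) with TMM factors, which compares libraries for one gene and not one gene with another. Sall2 counts were 756 in the WT control, 587 in the Het control and 388 to 432 in the KO controls, and with doxorubicin 188 (WT), 164 (Het), 76 (KO 1) and 81 (KO 2), so transcripts of the targeted locus remained. The Het control and the KO 3 control stood apart from the other controls. Their summed level of 12 interferon-stimulated genes was 2398 and 2652 CPM, against 47.7 to 67.4 CPM in the other 3 controls and 335 to 1485 CPM with doxorubicin, the highest being Het. The 10 fibroblast markers summed to between 10980 and 54117 CPM in the controls and between 13663 and 40459 CPM with doxorubicin. Col1a1, which is among these markers, was present in every library. In the controls it was at 4910 CPM in Het and 4190 CPM in KO 3 against 18054 to 24285 CPM in the others. The 7 macrophage markers summed to 105 to 599 CPM in the controls and 73.4 to 659.8 CPM with doxorubicin, and none was at 0. Of these markers, 5 of 7 were highest in the Het and KO 3 controls (Lyz2 336 and 289 CPM against 52.0 to 96.2). C1qa and Csf1r were not. C1qa was lowest in the KO 3 control and higher in the WT control than in Het. Csf1r was lower in the KO 3 control than in the WT and KO 1 controls. Epithelial markers summed to 6.96 to 19.0 CPM in the controls and 6.37 to 9.16 CPM with doxorubicin, with Epcam and Cdh1 at 0 in 1 control each, and endothelial markers to 17.6 to 47.3 and 35.6 to 90.7 CPM. In bulk RNA, fewer cells of a type and less RNA per cell cannot be told apart, and the part of these differences in the results below was not tested. The counts of calls, and the genes whose controls follow these cultures most, are also given without them. Those genes stood out through the same control values that are then left out. Their fold changes and FDR without these cultures therefore describe the data and are not separate tests.

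The start regions of 31 of the 38 genes were matched in RefSeq (GRCm38.p6, 250 bases before to 50 bases after a start), and 12 of these 31 genes (38.7%) held the 10-base p53 half-site, against 9.55% of all genes with a promoter. By promoter, 8.36% of 32851 windows held it, and this share was not computed for the members. A gene with several listed starts, such as Steap3 or Ak1, has more windows in which a half-site can occur. The shares by gene are not adjusted for this. The half-site reads the same on both strands, and 2 of them with a spacer of up to 13 bases make a full response element, which 0 of the 31 genes and 0.0731% of all promoters held in this window. The 5 sequences that follow are the 250 bases before a start, 5′ to 3′ on the gene's strand, with the half-site in capitals. They were chosen because Ppm1d and Sesn1 were higher with doxorubicin while Mdm2 and Ccng1, 2 textbook targets, did not pass the test, and because Rps27l was the gene that differed most between cultures.
Ppm1d, chr11:85311004-85311253, plus strand: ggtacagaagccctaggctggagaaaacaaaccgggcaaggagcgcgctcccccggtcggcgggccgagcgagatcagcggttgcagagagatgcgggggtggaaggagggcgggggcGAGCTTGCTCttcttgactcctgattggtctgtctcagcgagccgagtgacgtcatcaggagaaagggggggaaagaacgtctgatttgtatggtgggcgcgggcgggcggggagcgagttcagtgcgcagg
Sesn1, chr10:41887189-41887438, plus strand, before the downstream of 2 listed starts: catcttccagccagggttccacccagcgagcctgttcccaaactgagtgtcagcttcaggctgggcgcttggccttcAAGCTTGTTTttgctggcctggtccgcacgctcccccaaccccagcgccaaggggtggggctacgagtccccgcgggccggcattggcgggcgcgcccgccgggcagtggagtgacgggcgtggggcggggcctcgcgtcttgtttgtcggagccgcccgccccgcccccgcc
Mdm2, chr10:117710759-117711008, minus strand: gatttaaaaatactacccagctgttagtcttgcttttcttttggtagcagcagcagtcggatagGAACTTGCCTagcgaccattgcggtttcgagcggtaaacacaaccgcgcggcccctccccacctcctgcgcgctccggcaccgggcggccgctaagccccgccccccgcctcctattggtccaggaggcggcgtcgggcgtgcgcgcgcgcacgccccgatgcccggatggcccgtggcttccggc
Ccng1, chr11:40755287-40755536, minus strand: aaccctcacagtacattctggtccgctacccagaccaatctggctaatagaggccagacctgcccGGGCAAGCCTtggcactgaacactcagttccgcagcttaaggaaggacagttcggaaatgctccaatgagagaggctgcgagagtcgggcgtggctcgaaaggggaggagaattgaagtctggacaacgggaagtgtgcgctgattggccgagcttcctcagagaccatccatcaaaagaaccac
Rps27l, chr9:66946163-66946412, plus strand, before the downstream of 2 listed starts: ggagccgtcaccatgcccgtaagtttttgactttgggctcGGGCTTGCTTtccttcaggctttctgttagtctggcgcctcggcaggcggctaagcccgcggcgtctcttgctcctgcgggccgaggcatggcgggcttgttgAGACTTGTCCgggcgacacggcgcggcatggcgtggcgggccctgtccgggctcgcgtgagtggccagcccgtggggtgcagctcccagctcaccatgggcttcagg
The half-site began 132 bases before the start in Ppm1d, 173 in Sesn1, 186 in Mdm2 and 185 in Ccng1, and Rps27l, the 1 member with 2 half-sites in a window, had them at 210 and 107. Of the 10 genes that passed the test of treatment below, Ppm1d, Sesn1 and Abhd4 held a half-site, Plk3 and Cgref1, which rose, and Mdm4 and Phlda3, which fell, held none in the windows listed, and Perp, Pmaip1 and Rrm2b had no entry. These matches describe letters and not binding.

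With doxorubicin, 8 of the 38 genes rose, 2 fell and 28 did not pass the test (edgeR's quasi-likelihood test over 9 libraries with genotype in the model, Benjamini-Hochberg FDR under 0.01). Perp and Pmaip1, which act in apoptosis, had the largest increases, followed by Ppm1d, Rrm2b, Plk3, Cgref1, Sesn1 and Abhd4, while Mdm4 and Phlda3 fell. Across the transcriptome the same test called 40.6% of 16656 genes, 21.9% as higher and 18.7% as lower. The share of the 38 genes that rose (21.1%) was close to the background. The shares that fell (5.26%) and that were called in either direction (26.3%) were below it. The median log2 fold change was -0.02 over the 38 genes and 0.02 over all genes. At an unadjusted p under 0.05 there were 19 of 38 genes, against 60.6% of all genes.

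**Figure D1:**
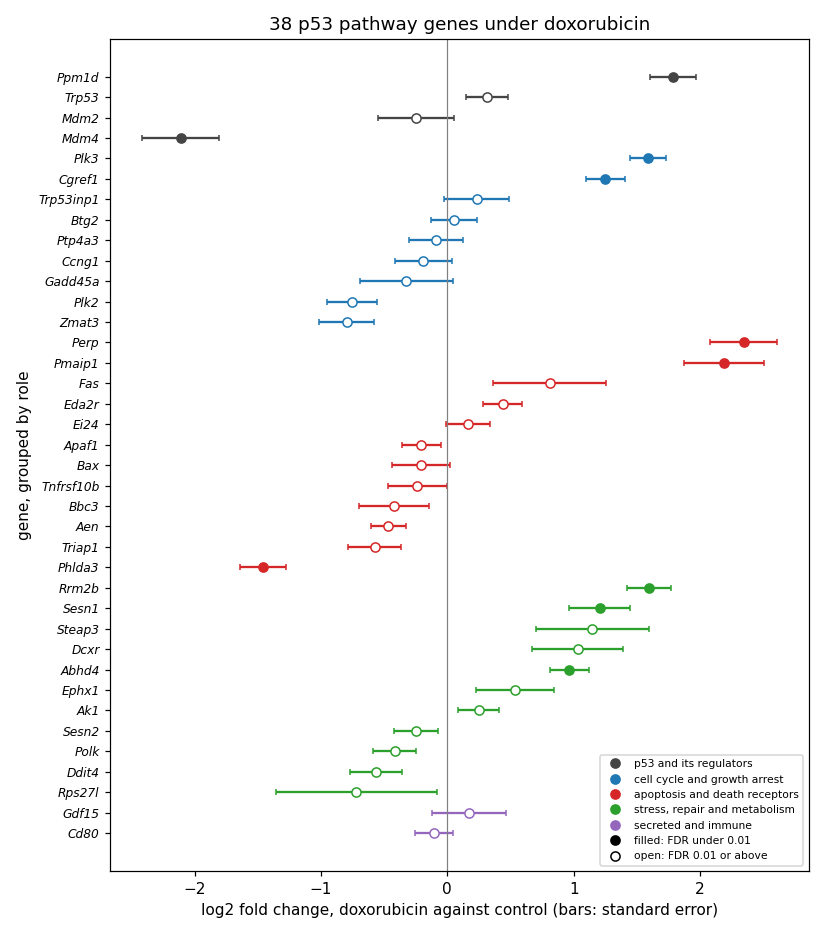
Fitted log2 fold change, doxorubicin against control, of the 38 p53 pathway genes, grouped by role on the vertical axis. Bars are standard errors of the fit over 9 libraries, filled points passed FDR 0.01 and open points did not. The 10 filled points lie between -2.11 (Mdm4) and 2.34 (Perp), and the 28 open points lie between them.

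The difference between KO 1 and KO 2 correlated between control and doxorubicin (r = 0.342 over 16656 genes). A fit with culture as a replicate block called 12 of the 38 genes higher and 6 lower, against 30.0% and 26.9% of all genes. It gained Fas, Dcxr, Ephx1 and Steap3 as higher and Plk2, Zmat3, Tnfrsf10b and Aen as lower, and lost none. Without the Het culture and the KO 3 control, 14 genes were higher and 6 lower, against 35.1% and 31.4% of 15442 genes. Every treated library lay above every control library for 9 genes (24.3% of all genes) and below for 6 (22.1%).

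Of p53 and its regulators, Ppm1d rose and Mdm4 fell, while Trp53 and Mdm2 did not pass the test. Ppm1d encodes the phosphatase Wip1, which removes activating phosphates from p53 and from the damage kinases. Its level was 18.4 CPM in the WT control, 12.0 in the Het control and 15.6, 15.7 and 10.1 in KO 1 to 3, and with doxorubicin 54.3 (WT), 34.8 (Het), 49.2 (KO 1) and 57.0 (KO 2). All treated libraries were above all controls, with Het lowest among the treated, and the log2 fold change was 1.78 (SE 0.18, FDR = 8.94e-05 by edgeR). Mdm4, the p53 inhibitor, was at 44.4 CPM (WT), 99.4 (Het) and 40.1, 45.7 and 97.8 (KO 1 to 3) in the controls, and at 11.2, 31.1, 10.3 and 13.1 in WT, Het, KO 1 and KO 2 with doxorubicin. The groups did not overlap, although the Het and KO 3 controls were 2.23 and 2.20 times the WT control and treated Het stayed the highest of its group. Within each of the 4 cultures Mdm4 was 3.19-fold to 3.93-fold lower after treatment, and the fitted log2 fold change was -2.11 (SE 0.31, FDR = 0.000523 by edgeR).

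Mdm2, the ligase and the classical feedback target, was at 254 CPM (WT), 513 (Het) and 205, 219 and 511 (KO 1 to 3) in the controls. With doxorubicin it was at 225 in WT, 467 in Het, 203 in KO 1 and 284 in KO 2. The values followed the culture more than the treatment: Het stayed near the level of the KO 3 control, and the ratio of treated to control ran from 0.887 in WT to 1.30 in KO 2. Its log2 fold change was -0.25 (SE 0.30, FDR = 0.512 by edgeR), and 0.09 (FDR = 0.577) without the Het culture and the KO 3 control. Trp53 was at 99.2 to 159 CPM in controls and 123 to 183 CPM with doxorubicin, higher after treatment in 4 of 4 cultures but with overlapping groups (log2 0.32, SE 0.17, FDR = 0.135 by edgeR).

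Among 9 cell cycle and growth arrest genes, Plk3 and Cgref1 rose, 0 fell and 7 did not pass the test. Plk3 is a stress-activated polo-like kinase. It was at 26.7 CPM (WT), 31.8 (Het) and 28.2, 22.8 and 30.8 (KO 1 to 3) in the controls, and at 88.7, 94.6, 81.0 and 73.8 in WT, Het, KO 1 and KO 2 with doxorubicin. All 4 cultures rose by 2.86-fold to 3.32-fold, with the Het and KO 3 libraries near the rest, and the log2 fold change was 1.59 (SE 0.14, FDR = 4.92e-05 by edgeR). Exons of Plk3 overlap those of Tctex1d4 on the opposite strand, which had 0 to 19 counts per library. Cgref1, a secreted EF-hand protein linked to growth control, was at 18.1 to 29.2 CPM in controls and 44.4 to 62.4 CPM with doxorubicin without overlap (log2 1.25, SE 0.15, FDR = 0.00022 by edgeR).

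Plk2, the other stress-induced polo-like kinase of the set, had a fold change of the opposite sign to that of Plk3. It was at 416 CPM (WT), 402 (Het) and 287, 331 and 442 (KO 1 to 3) in the controls, and at 235, 180, 228 and 239 with doxorubicin in WT, Het, KO 1 and KO 2. All treated libraries were below all controls, and the log2 fold change of -0.76 (SE 0.20) missed the threshold at FDR = 0.0105 and passed it in the blocked fit at FDR = 0.00296 (edgeR). Zmat3, an RNA-binding zinc finger protein, was also lower without overlap, at 130 to 245 CPM in controls and 96.8 to 119 CPM with doxorubicin (log2 -0.79, FDR = 0.013, blocked FDR = 0.000336 by edgeR).

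The other 5 genes of this group had overlapping values. Ccng1, which encodes cyclin G1 and is among the most robust p53 targets in mouse tissues, was at 1101 CPM (WT), 1165 (Het) and 970, 959 and 1268 (KO 1 to 3) in the controls. It was at 1065, 760, 946 and 1040 CPM with doxorubicin in WT, Het, KO 1 and KO 2. WT, KO 1 and KO 2 stayed within 0.967 to 1.08 times their controls while Het was 1.53-fold lower, and the log2 fold change was -0.19 (SE 0.22, FDR = 0.497 by edgeR). The antiproliferative gene Btg2 was at 107 to 168 CPM in controls and 116 to 149 CPM with doxorubicin (FDR = 0.821 by edgeR). Gadd45a, a damage-induced stress sensor, was at 7.24 to 29.5 CPM in controls and at 12.9 to 18.0 CPM with doxorubicin (FDR = 0.478 by edgeR), and its exons overlap those of E230016M11Rik on the opposite strand. Trp53inp1, a stress protein that promotes p53 phosphorylation, and the phosphatase gene Ptp4a3 had log2 fold changes of 0.23 and -0.09.

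**Figure D2:**
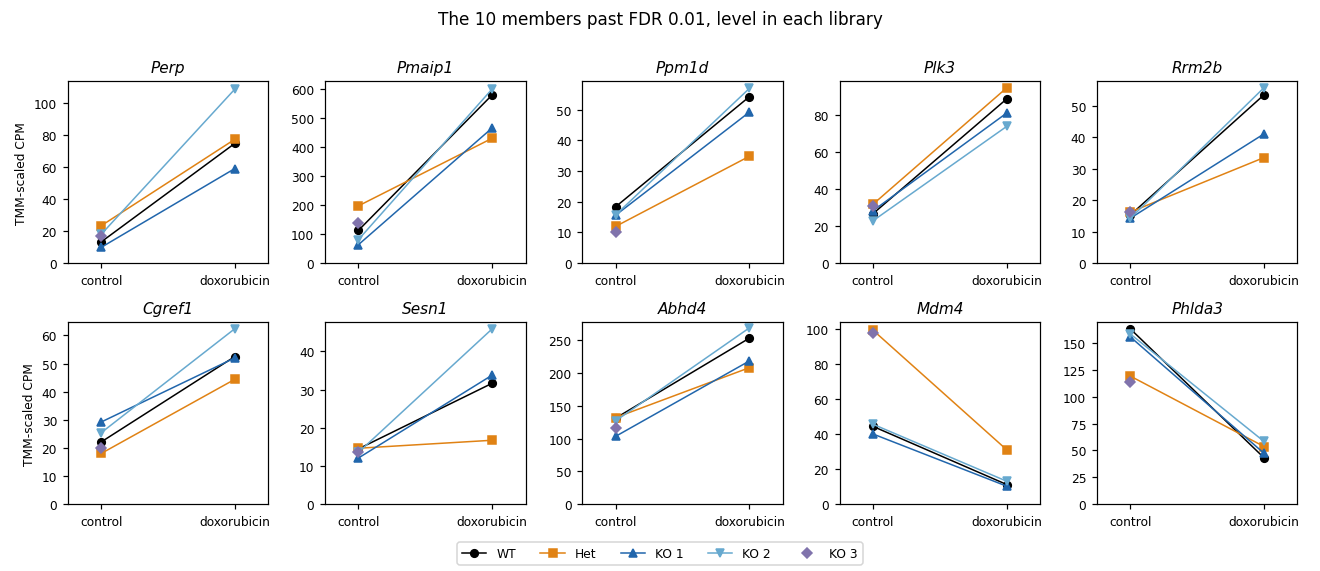
Level in TMM-scaled CPM (linear axis from 0) of the 10 genes past FDR 0.01, in control and with doxorubicin. Each point is 1 library and lines join libraries of one embryo, and KO 3 has a control only. All treated points of the 8 genes that rose lie above all control points, and for Mdm4 and Phlda3 below them.

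Among 12 apoptosis and death receptor genes, Perp and Pmaip1 rose, Phlda3 fell and 9 did not pass the test. Perp is a membrane protein of desmosomes and a p53 effector of apoptosis. It was at 13.2 CPM (WT), 23.3 (Het) and 9.78, 17.9 and 16.7 (KO 1 to 3) in the controls, and at 74.8, 77.3, 59.0 and 109 with doxorubicin in WT, Het, KO 1 and KO 2. The lowest treated library was well above the highest control, and the log2 fold change was 2.34 (SE 0.26, FDR = 0.00014 by edgeR). Pmaip1, the BH3-only protein Noxa, was at 113 CPM (WT), 197 (Het) and 63.4, 80.9 and 137 (KO 1 to 3) in the controls, and at 580, 431, 466 and 601 with doxorubicin in WT, Het, KO 1 and KO 2. It was 5.14-fold higher in WT and 7.35-fold and 7.42-fold higher in KO 1 and KO 2 but 2.18-fold higher in Het, which had both the highest control and the lowest treated level (log2 2.19, SE 0.32, FDR = 0.0005 by edgeR).

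Phlda3, a pleckstrin homology protein that restrains Akt and is known as a p53 target, was at 163 CPM (WT), 119 (Het) and 156, 158 and 114 (KO 1 to 3) in the controls. With doxorubicin it was at 43.3 (WT), 53.7 (Het), 47.5 (KO 1) and 58.4 (KO 2). All treated libraries lay below the lowest control, and the log2 fold change was -1.46 (SE 0.18, FDR = 0.000257 by edgeR).

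The other BCL-2 family members did not pass the test. Bax, the pore-forming effector, was at 134 to 278 CPM in controls and 153 to 189 CPM with doxorubicin (log2 -0.21, SE 0.23, FDR = 0.474 by edgeR). Bbc3, which encodes Puma, was at 8.28 to 23.2 CPM in controls and 11.4 to 15.7 CPM with doxorubicin (log2 -0.42, SE 0.28, FDR = 0.226 by edgeR). For both, the 2 highest controls were Het and KO 3. Without the Het culture and the KO 3 control the log2 fold changes were 0.11 for Bax and -0.13 for Bbc3 (FDR = 0.348 and 0.596 by edgeR).

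The death receptors differed among themselves. Fas was at 17.1 CPM (WT), 43.9 (Het) and 14.8, 14.7 and 58.4 (KO 1 to 3) in the controls, and at 48.4, 44.5, 44.0 and 59.8 with doxorubicin in WT, Het, KO 1 and KO 2. It was 2.83-fold, 2.96-fold and 4.04-fold higher in WT, KO 1 and KO 2 and 1.01-fold in Het, whose control, like that of KO 3, already had the level of the treated libraries. The log2 fold change was 0.81 (SE 0.45, FDR = 0.153), 1.30 in the blocked fit (FDR = 0.00414) and 1.72 without the Het culture and the KO 3 control (FDR = 2.22e-06, edgeR). Tnfrsf10b, the TRAIL receptor DR5, was at 78.8 to 173 CPM in controls and 55.6 to 141 CPM with doxorubicin and was lower in 4 of 4 cultures (log2 -0.24, FDR = 0.411, blocked FDR = 0.00732 by edgeR). Eda2r, a receptor of ectodysplasin, was at 120 to 136 CPM in controls and 124 to 204 CPM with doxorubicin (log2 0.44, FDR = 0.0375 by edgeR).

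Of the remaining genes of this group, the exonuclease gene Aen was lower without overlap, at 94.4 to 110 CPM in controls and 64.8 to 81.2 CPM with doxorubicin (log2 -0.47, FDR = 0.0183, blocked FDR = 0.00476 by edgeR). Triap1, an inhibitor of apoptosis, was at 19.5 to 35.1 CPM in controls and 14.5 to 19.2 CPM with doxorubicin, again without overlap (FDR = 0.0427 by edgeR). Apaf1, the scaffold of the apoptosome, and Ei24, an endoplasmic reticulum protein, had log2 fold changes of -0.20 and 0.16 (FDR = 0.286 and 0.450 by edgeR).

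Among 11 stress, repair and metabolism genes, Rrm2b, Sesn1 and Abhd4 rose, 0 fell and 8 did not pass the test. Rrm2b encodes the p53-inducible subunit of ribonucleotide reductase, which supplies deoxynucleotides for repair. It was at 15.2 CPM (WT), 16.2 (Het) and 14.2, 14.2 and 16.3 (KO 1 to 3) in the controls, and at 53.4, 33.5, 41.0 and 55.7 with doxorubicin in WT, Het, KO 1 and KO 2. Its controls lay closer together than those of most members (1.15 between highest and lowest), and the log2 fold change was 1.59 (SE 0.18, FDR = 0.000128 by edgeR). Sesn1, a sestrin that restrains mTORC1, was at 12.1 to 14.7 CPM in the 5 controls and at 31.7 in WT, 16.7 in Het, 33.8 in KO 1 and 45.9 in KO 2 with doxorubicin. Het was 1.14-fold higher against 2.18-fold to 3.36-fold in the other cultures, and the log2 fold change was 1.20 (SE 0.24, FDR = 0.00288 by edgeR).

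Abhd4, a lipase of N-acyl phospholipid metabolism, was at 104 to 132 CPM in controls and 208 to 269 CPM with doxorubicin (log2 0.97, SE 0.15, FDR = 0.000903 by edgeR). It lies on chromosome 14 (chr14:54254188-54270637, GRCm38), as Sall2 and Tnfrsf10b do. Sesn2, the sestrin that also answers to other stresses, and Ddit4, an inhibitor of mTORC1, had log2 fold changes of -0.25 and -0.56 (FDR = 0.260 and 0.0434 by edgeR). Polk, a translesion DNA polymerase, was at 36.8 to 56.8 CPM in controls and 28.6 to 37.4 CPM with doxorubicin, lower in 4 of 4 cultures (FDR = 0.0666 by edgeR).

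A further 3 metabolic genes were higher in 4 of 4 cultures and passed in the blocked fit but not without the block. Dcxr, which reduces dicarbonyls and xylulose, was at 30.1 CPM (WT), 67.6 (Het) and 22.6, 30.6 and 77.4 (KO 1 to 3) in the controls, and at 81.6, 79.6, 87.8 and 106 with doxorubicin in WT, Het, KO 1 and KO 2. The groups did not overlap, yet Het was 1.18-fold higher and the others 2.70-fold to 3.88-fold (log2 1.03, FDR = 0.0376, blocked FDR = 0.00173 by edgeR). Ephx1, the microsomal epoxide hydrolase, was at 88.8 to 269 CPM in controls and 115 to 332 CPM with doxorubicin, and Steap3, an endosomal ferrireductase, at 5.46 to 35.0 CPM and 17.5 to 54.8 CPM. Both were lowest in the Het and KO 3 controls, and their blocked FDR was 0.00885 and 0.00162 (edgeR). Without the Het culture and the KO 3 control the log2 fold changes were 1.74 for Dcxr, 0.35 for Ephx1 and 0.69 for Steap3 (FDR = 2.71e-06, 0.00637 and 0.00022 by edgeR). Ak1, a cytosolic adenylate kinase, did not pass in either fit (log2 0.25, FDR = 0.225 and blocked FDR = 0.159 by edgeR).

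Rps27l, a ribosomal protein paralogue and p53 target, had the widest range between controls of the 38 genes. It was at 183 CPM (WT), 982 (Het) and 180, 190 and 1292 (KO 1 to 3) in the controls, so that Het and KO 3 were 5.36 and 7.05 times WT. With doxorubicin it was at 246 (WT), 546 (Het), 243 (KO 1) and 250 (KO 2). WT, KO 1 and KO 2 were 1.32-fold to 1.35-fold higher and Het was 1.80-fold lower, and the fitted log2 fold change of -0.72 (SE 0.64, FDR = 0.365) became 0.43 (FDR = 0.00137, edgeR) without the Het culture and the KO 3 control. Its near-identical paralogue Rps27, with which it may share reads, had 20 to 124 counts per library (1.09 to 5.59 CPM). These were likewise highest in the Het and KO 3 controls. As reads may be shared, these counts need not show the expression of Rps27, which was not tested.

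The 2 secreted and immune genes did not pass the test. Gdf15, a stress-induced cytokine, was at 8.17 to 18.8 CPM in controls and 10.0 to 17.1 CPM with doxorubicin, higher in 4 of 4 cultures by 1.05-fold to 1.96-fold (FDR = 0.638 by edgeR). Cd80, a costimulatory ligand of T cells, was at 34.0 to 41.4 CPM in controls and 26.2 to 43.4 CPM with doxorubicin (FDR = 0.567 by edgeR).

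**Figure D3:**
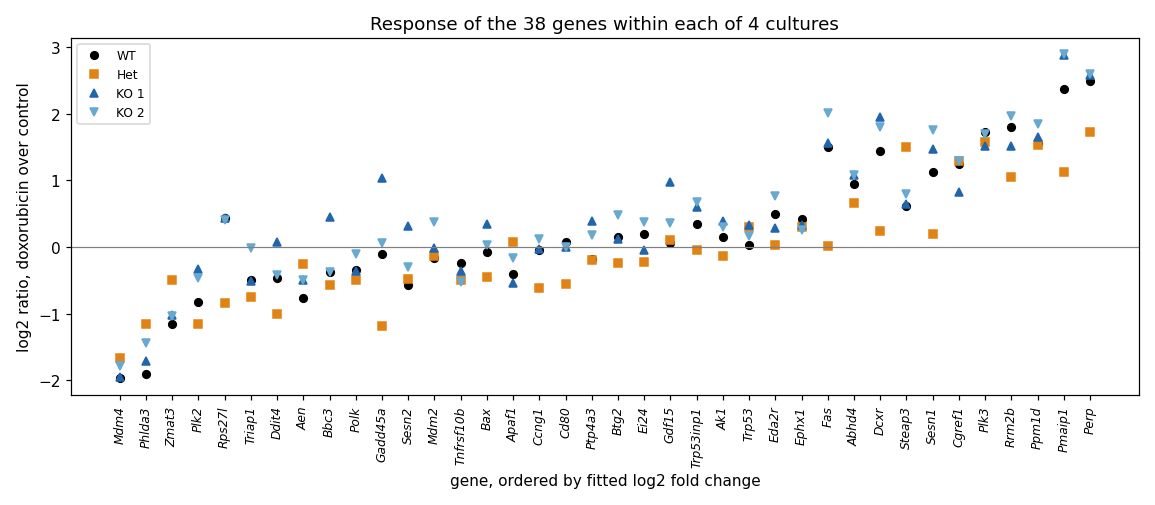
Log2 ratio of doxorubicin to control within each of the 4 cultures that had both, for the 38 genes ordered by their fitted fold change. Each point is 1 culture with no error bar. At the right, Pmaip1, Fas, Dcxr and Sesn1 show Het below the other 3 cultures, and at Rps27l Het is at -0.85 while the others lie between 0.40 and 0.43.

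Within cultures, 15 of the 38 genes were higher in 4 of 4 cultures and 8 were lower in 4 of 4, where all genes gave 38.6% and 35.4%. The median log2 ratio over the 38 genes was 0.07 in WT, -0.17 in Het, 0.34 in KO 1 and 0.28 in KO 2, and over all genes it was 0.11, -0.05, 0.11 and 0.10. Het had the smallest ratio of the 4 cultures in 24 of the 38 genes, against 42.4% of all genes.

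The controls differed between cultures in a like way. The Het and KO 3 controls held the 2 highest control values in 19 of the 38 genes (all genes 37.5%) and the 2 lowest in 11 (all genes 34.7%). Mdm2, Mdm4, Fas, Dcxr, Bax and Rps27l were among the genes highest there, and Trp53, Ppm1d, Zmat3, Tnfrsf10b, Ephx1 and Steap3 among the lowest. In these libraries the 12 interferon-stimulated genes and 5 of 7 macrophage markers were highest among the controls, and 9 of 10 fibroblast markers were lowest. The part of those markers in these levels was not tested.

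**Figure D4:**
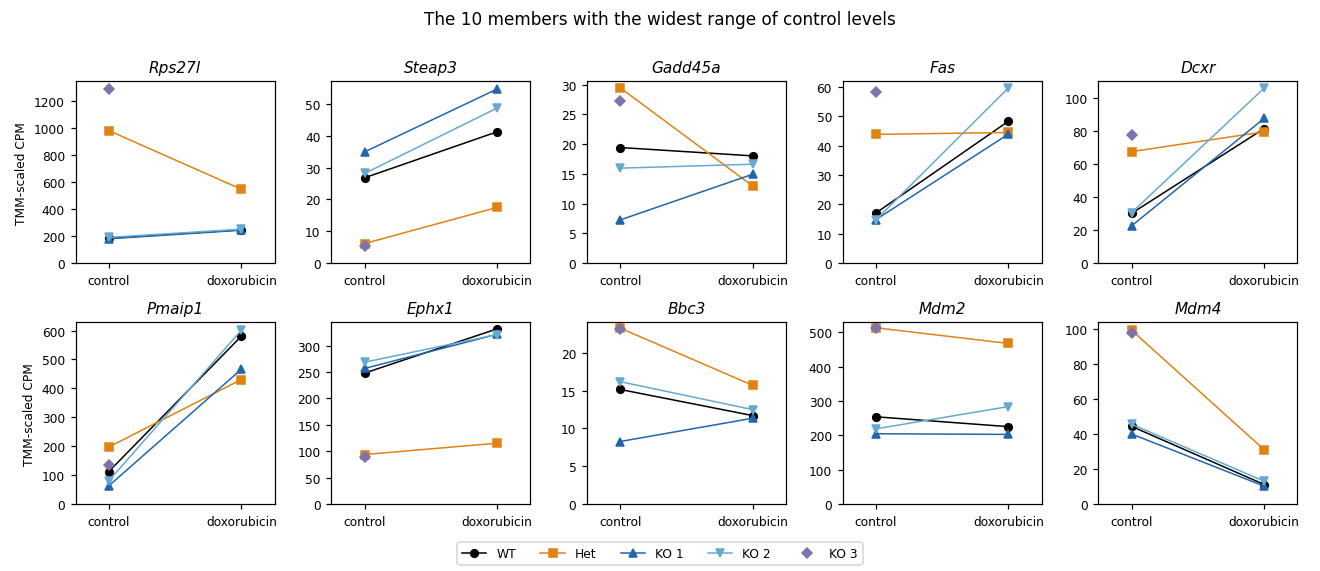
Level in TMM-scaled CPM (linear axis from 0) of the 10 genes with the largest ratio between highest and lowest control, in control and with doxorubicin, 1 point per library, lines joining one embryo. In the controls Het and KO 3 lie together and away from WT, KO 1 and KO 2 for Rps27l (982 and 1292 against 180 to 190 CPM), and below them for Steap3 and Ephx1.

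The second question was whether the 38 genes differed between Sall2 genotypes. In the controls, 0 of 38 genes differed between KO and WT, as 0% of 14470 genes did. With edgeR 0 of the 38 had an unadjusted p under 0.05, against 0.0691% of all genes, and DESeq2 called 0. The smallest p was 0.324, for Rps27l, at a log2 difference KO minus WT of 1.65 with an SE of 1.50, and the differences of the 38 genes ran from -0.38 (Ppm1d) to that value. The standard errors, from 0.30 for Cd80 upwards, leave differences of several fold undecided for genes such as Fas (0.83, SE 1.01) or Mdm2 (0.34, SE 0.72), so a missed threshold does not show equal levels. With 1 factor of unwanted variation removed by RUVg and edgeR's exact test, Rps27l was called as higher in KO (log2 0.74, FDR = 0.00133), and it was the 1 member among 127 genes. Before this removal the Rps27l level was 0.981 times the WT control in KO 1, 1.04 times in KO 2 and 7.05 times in KO 3. At that stage only KO 3 was clearly raised. The levels per culture after the removal were not examined, so whether the KO cultures share the called difference was not tested.

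With doxorubicin, 0 of 38 genes differed between KO and WT, against 0.197% of 15256 genes. The smallest p was 0.0871, for Gdf15, at a log2 difference of 0.46 (SE 0.27), and 0 of 38 fell under 0.05 in edgeR, against 2.84% of all genes, with 0 called by DESeq2. The differences ran from -0.24 (Cd80) to 0.46, with standard errors of 0.20 to 0.29. These rest on 1 WT and 2 KO libraries with 1 residual degree of freedom and on a spread borrowed from other genes, so they need not show the spread of a single gene (treated KO had 59.0 and 109 CPM of Perp). Mdm2 differed by 0.11 (SE 0.24), Ccng1 by -0.10 (SE 0.29), Pmaip1 by -0.12 (SE 0.26) and Perp by 0.17 (SE 0.21).

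The response itself was compared by the interaction of genotype and treatment, which is the log2 fold change in KO minus that in WT. It was called for 0 of 38 genes and 0% of 15905 genes, with 0 of 38 at an unadjusted p under 0.05 (0.258% of all genes) and 0 called by DESeq2. The smallest p was 0.301, for Sesn2, at 0.52 (SE 0.46). Perp differed by -0.01 (SE 0.69), Ppm1d by 0.38 (SE 0.49) and Mdm4 by -0.41 (SE 0.80), and standard errors of this size leave it undecided whether the responses were alike. These comparisons share the WT library of each treatment.

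Other genes of the pathway were read from lists chosen with earlier results of these data known. Of 29 p53 regulators and partners, 4 rose and 11 fell, against 21.9% and 18.7% of all genes (median log2 fold change -0.45, against 0.02 for all genes). In the blocked fit 7 rose and 12 fell (all genes 30.0% and 26.9%), and without the Het culture and the KO 3 control 9 rose and 14 fell (all genes 35.1% and 31.4%). Trp73, which encodes the p53 relative p73, had 0 to 4 counts in the controls and 82, 60, 84 and 81 in WT, Het, KO 1 and KO 2 with doxorubicin (FDR = 9.85e-05 by edgeR), and no fold is given because the controls were near a floor of 3 counts. Trp53bp1, the damage-site adaptor 53BP1, fell by 2.03 on the log2 scale, and Prkdc, the catalytic subunit of DNA-PK, by 1.64, whereas Ppp1r13l, the p53 inhibitor iASPP, rose by 1.52. For Prkdc the ratio of treated to control was 0.811 in Het and 0.193 to 0.296 in the other cultures.

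Of 43 other reported p53 targets, 18 rose and 3 fell, against 21.9% and 18.7% of all genes (median log2 fold change 0.60). In the blocked fit 25 rose and 6 fell (all genes 30.0% and 26.9%), and without the Het culture and the KO 3 control 27 rose and 6 fell of the 42 tested (all genes 35.1% and 31.4%). The largest changes were in Gls2, a mitochondrial glutaminase (log2 4.59, SE 0.20), Ndrg1, a stress-responsive gene (4.07, SE 0.19), Fdxr, ferredoxin reductase (3.50, SE 0.22), and Trp53i11 (2.55, SE 0.19). Gls2 was at 1.02 to 1.89 CPM in controls and 29.5 to 42.7 CPM with doxorubicin, and Fdxr at 3.62 to 6.36 and 49.1 to 60.9 CPM. Both were higher in 4 of 4 cultures, by 19.0-fold to 32.0-fold for Gls2 and 9.36-fold to 16.2-fold for Fdxr.

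Cdkn1a, which encodes the cell cycle inhibitor p21 and is the best known p53 target, was lower with doxorubicin. It was at 561 CPM (WT), 532 (Het) and 452, 495 and 394 (KO 1 to 3) in the controls, and at 271, 298, 309 and 337 with doxorubicin in WT, Het, KO 1 and KO 2. The groups did not overlap and each of the 4 cultures was 1.47-fold to 2.07-fold lower, yet the log2 fold change of -0.67 (SE 0.19) missed the threshold at FDR = 0.0145 and passed in the blocked fit at FDR = 0.00058 (edgeR).

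Of 40 genes that p53 lowers indirectly through p21 and the DREAM complex, 6 rose and 3 fell, against 21.9% and 18.7% of all genes (median log2 fold change -0.27). In the blocked fit 7 rose and 17 fell, against 30.0% and 26.9% (median -0.44), and without the Het culture and the KO 3 control 7 rose and 21 fell, against 35.1% and 31.4%. Top2a, topoisomerase II alpha and a target of doxorubicin, fell by 2.36 on the log2 scale and the helicase subunit gene Mcm2 by 1.72, whereas the mitotic genes Cdc25c and Aurka rose by 2.07 and 1.82. Top2a was at 241 CPM (WT), 68.6 (Het) and 283, 251 and 91.0 (KO 1 to 3) in the controls and at 29.5 to 37.4 CPM with doxorubicin. Mcm2 had overlapping groups, at 29.6 to 117 CPM in the controls and 7.94 to 39.9 CPM with doxorubicin. Its Het and KO 3 controls (29.6 and 34.0 CPM) lay below treated KO 1 (39.9 CPM). The Het and KO 3 controls held the 2 lowest control values in 36 of these 40 genes, against 34.7% of all genes.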

How the data were processed

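RNA-seq libraries (rRNA depleted, TruSeq Stranded, NextSeq 500) were made from the cultures described above. The authors merged 4 FASTQ files per sample, aligned them to mm10 with HISAT2 (2.1.0 in the submitters' processing notes), used HTSeq (union mode) for counting, and the deposited values are raw counts per gene. The strand setting of the counting is not given in the sources used here. Groups came from the sample labels, and the study calls its Het MEFs a littermate, while which KO cultures share a litter is not given in the sources used here.

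The count tests used R 4.3.3 and edgeR 4.0.16 (TMM, filterByExpr, quasi-likelihood F test, two-sided, Benjamini-Hochberg over all genes tested, threshold 0.01). The standard error is the log2 fold change divided by the root of F. Alternatives used DESeq2 1.42.0, RLE factors, other count filters, RUVg with 1 factor, a threshold of 0.05, left-out libraries and a block by culture. A floor of 3 counts was set, equal to 0.123 to 0.169 CPM depending on the library total. Scripts were checked on simulated counts.

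The number in the labels was taken as that of the embryo, and so to pair control and treated libraries. The difference between KO 1 and KO 2 correlated between treatments (r = 0.342 over 16656 genes, which are not independent replicates). This correlation does not bear on the pairing of WT or Het. Members, roles, lists and tests were chosen with earlier results of these data known. Beyond the 38 members, Sall2 and Cdkn1a, each pathway list named its 4 genes with the largest absolute change among those that passed and that averaged 1 CPM or more. The 10 genes in the plot of control ranges, the sequences shown, Rps27, Tctex1d4 and the marker genes printed were chosen after values were seen. Positions are GRCm38 (GENCODE) and promoters RefSeq GRCm38.p6.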

Additional observations from a re-analysis of the deposited data

Results flagged for a closer look

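The response of Het was compared with that of KO after the data were seen, with culture as a block. The response (log2 fold change with doxorubicin, Het minus KO) was lower in Het for 10 of the 38 genes, against 13.6% of all genes called in either direction. It was -1.77 for Fas, -1.75 for Pmaip1, -1.69 for Gadd45a, -1.63 for Dcxr, -1.42 for Sesn1, -1.25 for Rps27l, -0.85 for Perp, -0.83 for Ddit4, -0.75 for Plk2 and -0.67 for Trp53inp1 (edgeR, FDR from 5.89e-15 for Pmaip1 to 0.00793 for Trp53inp1). What marked them is that the test of the difference itself passed. Het is 1 culture, the fit has 1 residual degree of freedom, and the FDR values rest mostly on a spread borrowed from other genes. They therefore do not measure how far cultures differ for each gene: the log2 ratios of Gadd45a were 1.03 in KO 1 and 0.06 in KO 2. Without the block 0 of the 38 passed, and 1, Sesn1, had an unadjusted p under 0.05 (p = 0.0189 by edgeR). The Het control summed 2398 CPM of interferon-stimulated genes and the treated Het library 1485 CPM, against 49.1 to 67.4 and 399 to 425 CPM in KO 1 and KO 2, and the part of this in the difference was not tested.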

How the results depend on the processing

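The 8 members that rose and the 2 that fell kept their direction under all 18 alternatives. Sesn1 missed the threshold without either treated KO library and without WT, and Mdm4, Cgref1, Phlda3 and Abhd4 did so in KO libraries alone. Members called lower numbered 4 with DESeq2 (22.3% of all genes), 7 at a threshold of 0.05 (26.3%), 6 in the replicate block (26.9%), 0 in KO libraries alone (4.76%) and 11 with a RUVg factor (29.0%). Without the Het culture and the KO 3 control, 14 members were higher, 6 lower and 10281 genes called, and Rps27l turned from -0.72 to 0.43. All genes called numbered 1911 in KO libraries alone and 4463 without WT. Leaving out 1 KO library at a time gave 4322 genes (26.0% of those tested, without treated KO 2) to 9770 genes (58.9%, without the KO 3 control). Of the genes called, 53.3% to 54.8% were higher. Beside this background, 7 to 12 members were higher and 2 to 6 lower. A block with the identical library taken as KO 3, added after the data were seen, called 6430 genes (38.6% of those tested, 53.5% of them higher). It called 8 members higher and 2 lower.

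KO against WT in controls called 127 genes and 1 member with RUVg and 0 to 47 genes with 1 KO library left out (47 without KO 1, 41 without KO 2). KO against WT with doxorubicin called 30 genes, 5 with DESeq2, 5 with RLE factors, 4 with a filter of 5 counts, 46 at 0.05 and 0 in a single fit of all libraries, each time with 0 members. Leaving out a treated KO library was not run there since no residual degree of freedom is left. The interaction called 8 genes in the replicate block and 0 members, and the Het response 10 members. Keeping every gene with a count moved the median of all genes from 0.02 to 0.23. Among the 38 genes the block changed no call of the treatment other than those given.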

Other observations

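The 12 interferon-stimulated genes used as a check of the cultures had different ratios of treated to control by culture. All 12 were higher after treatment in WT, KO 1 and KO 2, whereas in Het 2 were higher, Bst2 (471 to 683 CPM) and Irf7 (115 to 148 CPM), and 10 were lower. Their median log2 ratio of treated to control was 2.91 in WT, 2.43 in KO 1 and 3.64 in KO 2, and -1.21 in Het. Usp18, which removes ISG15 from proteins, went from 0.705 to 70.7 CPM in WT and from 208 to 118 CPM in Het. Isg15, a ubiquitin-like protein, went from 1.46 to 36.8 CPM in WT and from 439.7 to 198 CPM in Het. In the fit over all libraries 0 of the 12 passed the test by edgeR, and 2 rose in the blocked fit (all genes 30.0%). Without the Het culture and the KO 3 control 11 rose (all genes 35.1%). The Het and KO 3 controls had been set apart by their high values of these same 12 genes, so that last count is not a test of them.

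Sall2 itself was lower with doxorubicin in 4 of 4 cultures, by 3.05-fold in Het to 6.41-fold in KO 2, with a log2 fold change of -2.12 (SE 0.20, FDR = 6.9e-05 by edgeR).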
